A study of Mus musculus with 6 samples.

Results

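The genes described here are the anti-proliferative genes of the BTG family (Btg1, Btg2 and Btg3), the GADD45 genes (Gadd45a, Gadd45b and Gadd45g), the transcription factor gene Trp53 and 3 of its best known targets, Cdkn1a, Ccng1 and Mdm2. They were followed in the lungs of Igf1-/- mouse embryos, homozygous for an inactive gene of insulin-like growth factor 1, and of Igf1+/+ embryos, their wild type counterparts. Both genotypes were on the C57BL/6J background, were bred from heterozygous parents and were taken at embryonic day 18.5, shortly before birth. The methods state that pups of this age were delivered by C-section and helped to breathe under a warming lamp before the lungs were dissected. Each genotype had 3 arrays. The members were chosen by name: every probe set counted whose annotation gives exactly 1 gene symbol, that of a member. This gave 16 probe sets of 8 genes, out of 22626 mouse probe sets and 12393 genes with a probe set of their own. The single Btg3 probe set is also annotated to Gm7334, so no value is given for it, and Trp53 is not analysed here because no probe set in the table carried its name alone.

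BTG proteins lack an enzymatic activity of their own and act by bringing the CCR4-NOT deadenylase to mRNAs, which shortens their poly(A) tails, and they slow the passage of cells through G1. The p53 protein is held low by Mdm2 in unstressed cells, and once stabilised it activates Cdkn1a, Ccng1, Btg2, Gadd45a and Mdm2 itself, the last of which closes a feedback loop. GADD45 proteins are small acidic partners of the MAP3K4 kinase, of PCNA and of cyclin B1-CDK1, and are made when growth stops or DNA is damaged.

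Expression was read as log2 values of the RMA method, in which a difference of 1 is a doubling, and levels of different probe sets cannot be compared with each other. The 6 arrays correlated with each other at 0.992 to 0.996. Igf1 itself, the inactivated gene, gave 8.87, 8.99 and 9.38 in Igf1-/- lungs and 9.28, 9.85 and 9.65 in Igf1+/+ lungs at its brightest probe set. On average Igf1-/- lungs were lower at every Igf1 probe set, with log2 differences of -0.51 there and -0.58 and -0.42 at the others. Adjusted p values were 0.152 to 0.327 in limma, and the groups overlapped at the brightest and at 1 of the 2 other probe sets. The sources used here do not say whether these probe sets lie in the deleted part, so the labels could hardly be checked with them. All 12 lung markers were measured, among them the surfactant protein gene Sftpc. Their mean level was 10.58 to 10.74 in Igf1-/- lungs and 10.64 to 10.77 in Igf1+/+ lungs. Of the 12, 7 were higher and 5 lower in Igf1-/- lungs, and 1, the alveolar type I water channel gene Aqp5, fell. An unadjusted p under 0.05 in limma was found for 6 of 12, against 12.7% of all genes. Igf1-/- replicate 3 stood apart in heart markers, such as the atrial peptide gene Nppa: their mean level was 9.88 on that array, 8.32 and 8.34 on the other Igf1-/- arrays and 8.19 to 8.42 in Igf1+/+ lungs. Neutrophil markers were higher on every Igf1-/- array (7.53 to 7.92, against 7.10 to 7.18 in Igf1+/+ lungs; 7 of 7 genes higher, of which 1 rose), and the mean of the red cell markers was lower (6.23 to 6.37, against 6.83 to 6.93 in Igf1+/+ lungs). Of the 4 measured red cell genes, Slc4a1 (-1.64) and Alas2 (-0.87) fell, whereas Hba-a1 (0.12) and Epb42 (0.10) were higher in Igf1-/- lungs and did not pass. T cell markers separated by less (4.79 to 4.88, against 4.68 to 4.78 in Igf1+/+ lungs), with 5 of 6 higher and none past the threshold. Their mean level lay below the median of all mouse probe sets (6.88), and values of dim probe sets are limited by background signal. The methods speak of separate RNA samples and the labels of pooled lungs, so that the spread between arrays may not be that between single animals, and in whole lungs fewer cells of a type and less RNA per cell cannot be told apart.

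Among the members, only Btg2 differed between genotypes past the threshold used here, an adjusted p under 0.10 in limma over all mouse probe sets. Both of its probe sets fell in Igf1-/- lungs, by 1.65-fold and 1.79-fold (n = 3 per genotype). None of the 14 probe sets of Btg1, Cdkn1a, Ccng1, Mdm2 and the GADD45 genes passed, with adjusted p values of 0.243 to 0.955. Of all mouse probe sets, 0.393% fell and 0.164% rose, so that 2 of 16 member probe sets fell where 89 of 22626 did in all. Both are probe sets of 1 gene, Btg2, which the paper had already reported as repressed on these same arrays. The members were chosen with that result known, so this count is a description and carries no independent support. By direction alone, 11 of 16 probe sets were lower and 5 higher in Igf1-/- lungs, with a median log2 difference of -0.12, against 41.8% lower and a median of 0.03 over all probe sets. With Btg2 left out the median of the members was -0.07. The plot of member values by array shows these levels.

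**Figure D1:**
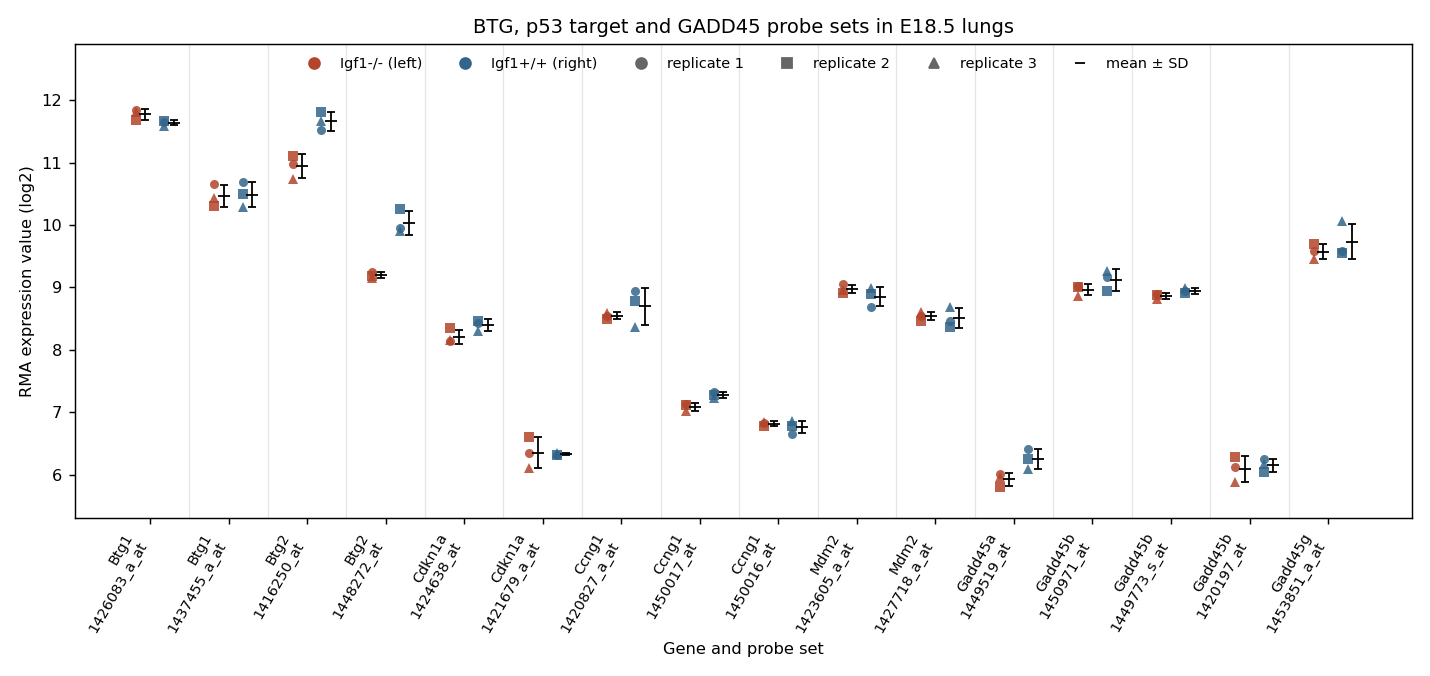
RMA expression value (log2) of the 16 member probe sets on each array, with Igf1-/- lungs left and Igf1+/+ lungs right in each pair, 1 symbol per replicate number, and the mean ± SD (n = 3) beside the points. The groups stand clear of each other by the widest margin at both Btg2 probe sets, whereas at most other probe sets they overlap.

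Btg2, also known as Tis21 or Pc3, is an early response gene of growth factors as well as a target of p53, and it restrains the G1 to S transition. Probe set 1416250_at gave 10.98, 11.11 and 10.74 in Igf1-/- lungs and 11.52, 11.82 and 11.66 in Igf1+/+ lungs. Probe set 1448272_at gave 9.25, 9.19 and 9.15 in Igf1-/- lungs and 9.96, 10.26 and 9.90 in Igf1+/+ lungs. Every Igf1-/- array lay below every Igf1+/+ array at both probe sets, and the highest values were those of Igf1+/+ replicate 2. The log2 difference was -0.72 (SE 0.12, 95% interval -0.98 to -0.46, adjusted p 0.0577 in limma) at 1416250_at and -0.84 (SE 0.10, 95% interval -1.07 to -0.61, adjusted p 0.0173 in limma) at 1448272_at. Ordered by p, these were the 62nd and the 26th of 22626 mouse probe sets, and by size the 47th and the 37th largest of the 89 decreases that passed. Leaving out single arrays did not change the direction, but 1416250_at no longer passed without Igf1-/- replicate 1 (adjusted p 0.163), without Igf1-/- replicate 3, the array high in heart markers (0.176), or without Igf1+/+ replicate 2 (0.144), whereas 1448272_at passed in each case (0.0161 to 0.0952).

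The promoters of Btg2 and Btg1 are printed because Btg2 passed the test and its close relative Btg1 did not. They are the 250 bases before the annotated start in RefSeq on GRCm38.p6, Btg2 at chr1:134079156-134079405 on the minus strand and Btg1 at chr10:96616751-96617000 on the plus strand. Capitals mark matches to the cAMP response element (CRE, TGACGTCA), its half-site TGACG, the EGR site GCGNGGGCG and the TATA box TATAAA, on either strand.
Btg2: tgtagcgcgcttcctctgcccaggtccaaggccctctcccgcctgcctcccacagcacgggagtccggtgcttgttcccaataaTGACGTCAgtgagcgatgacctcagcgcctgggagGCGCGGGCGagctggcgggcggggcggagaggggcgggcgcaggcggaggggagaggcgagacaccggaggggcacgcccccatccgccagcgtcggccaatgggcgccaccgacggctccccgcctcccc
Btg1: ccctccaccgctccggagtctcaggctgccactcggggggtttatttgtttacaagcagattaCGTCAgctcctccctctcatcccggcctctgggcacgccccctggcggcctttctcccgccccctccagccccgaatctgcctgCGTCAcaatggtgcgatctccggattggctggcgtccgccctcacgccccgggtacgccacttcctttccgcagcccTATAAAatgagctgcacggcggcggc
Motifs were searched in windows of 300 bases, the 250 before and the 50 after the start. The Btg2 window holds a full CRE 166 bases before the start, found in 1.79% of 32851 mouse promoters of that length, with an EGR site 131 bases before the start (5.55% of promoters). An EGR site is also in the window of Gadd45b, which did not pass, 30 bases before the start. A full CRE holds overlapping half-sites, 1 on each strand. The Btg1 window has no full CRE but half-sites on the reverse strand 187 and 103 bases before the start (20.8% of promoters), and a TATA box 26 bases before it (13.6%), which Btg2 lacks. No exact match to the p53 half-site RRRCWWGYYY (R for A or G, W for A or T, Y for C or T) is in either window. The AP-1 site TGANTCA (7.81%) and the CArG box (1.63%), the element bound by SRF, matched no window of the 10 members. A match describes letters only, and none was tested as a binding site.

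Btg1, the founding member of the family and a regulator of the quiescent state of lymphocytes, did not pass. At 1426083_a_at it gave 11.84, 11.68 and 11.81 in Igf1-/- lungs and 11.65, 11.67 and 11.59 in Igf1+/+ lungs. The groups did not overlap, with Igf1-/- higher, but the difference was small at 0.14 (SE 0.08, adjusted p 0.493 in limma), and 10.8% of all mouse probe sets were higher without overlap. At 1437455_a_at the values were 10.65, 10.31 and 10.43 in Igf1-/- lungs and 10.68, 10.49 and 10.29 in Igf1+/+ lungs, a difference of -0.02 with a 95% interval of -0.30 to 0.25. A fall of Btg1 as large as that of Btg2 lies outside both intervals. Taken within each array at the brightest probe sets, Btg2 minus Btg1 was -0.86, -0.57 and -1.08 in Igf1-/- lungs and -0.14, 0.14 and 0.07 in Igf1+/+ lungs. These groups did not overlap and differed by -0.86. With 3 against 3 arrays the exact two-sided permutation test cannot go below 0.1, which is the value it gave, or 0.6 after adjustment over the 6 pairs of members compared in this way.

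The p53 targets Cdkn1a, Ccng1 and Mdm2 had 7 probe sets, of which 4 were higher and 3 lower in Igf1-/- lungs and none passed. Cdkn1a encodes p21, the CDK inhibitor through which p53 arrests cells in G1. Its brighter probe set, 1424638_at, gave 8.14, 8.34 and 8.15 in Igf1-/- lungs and 8.43, 8.46 and 8.30 in Igf1+/+ lungs, with 1 Igf1-/- array above the lowest Igf1+/+ array. The difference was -0.19 (SE 0.09, 95% interval -0.39 to 0.01, adjusted p 0.425 in limma). The dimmer 1421679_a_at gave 6.34, 6.61 and 6.12 in Igf1-/- lungs and 6.32, 6.32 and 6.34 in Igf1+/+ lungs. It was the more variable in Igf1-/- lungs, and its difference of 0.03 turned to -0.0046 when arrays were weighted by quality.

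Ccng1 encodes cyclin G1, a p53 target that binds the B' subunits of protein phosphatase 2A. Its 3 probe sets disagreed in direction. The brightest, 1420827_a_at, gave 8.55, 8.49 and 8.60 in Igf1-/- lungs and 8.95, 8.78 and 8.37 in Igf1+/+ lungs, so that Igf1+/+ replicate 3 fell below all Igf1-/- arrays and the others above them. At 1450017_at the values were 7.13, 7.11 and 7.01 in Igf1-/- lungs and 7.33, 7.28 and 7.23 in Igf1+/+ lungs, lower without overlap by 0.19 (SE 0.07, adjusted p 0.338 in limma), as were 7.26% of all mouse probe sets. The third, 1450016_at, gave 6.84, 6.78 and 6.85 in Igf1-/- lungs and 6.66, 6.77 and 6.85 in Igf1+/+ lungs, a difference of 0.06. Mdm2, the ubiquitin ligase that turns p53 over, was nearly level: 9.05, 8.92 and 8.96 in Igf1-/- lungs and 8.68, 8.89 and 8.98 in Igf1+/+ lungs at 1423605_a_at (difference 0.12, adjusted p 0.629 in limma), and 8.54, 8.47 and 8.61 in Igf1-/- lungs and 8.46, 8.37 and 8.68 in Igf1+/+ lungs at 1427718_a_at (difference 0.04, adjusted p 0.902). The 95% intervals of all 7 probe sets lay between 0.728-fold and 1.26-fold, and larger differences of these array values lie outside them. Cdkn1a 1421679_a_at and Ccng1 1450016_at are dimmer than the median of all mouse probe sets, and values of dim probe sets are limited by background signal. The plot of differences with their intervals sets them beside Btg2.

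**Figure D2:**
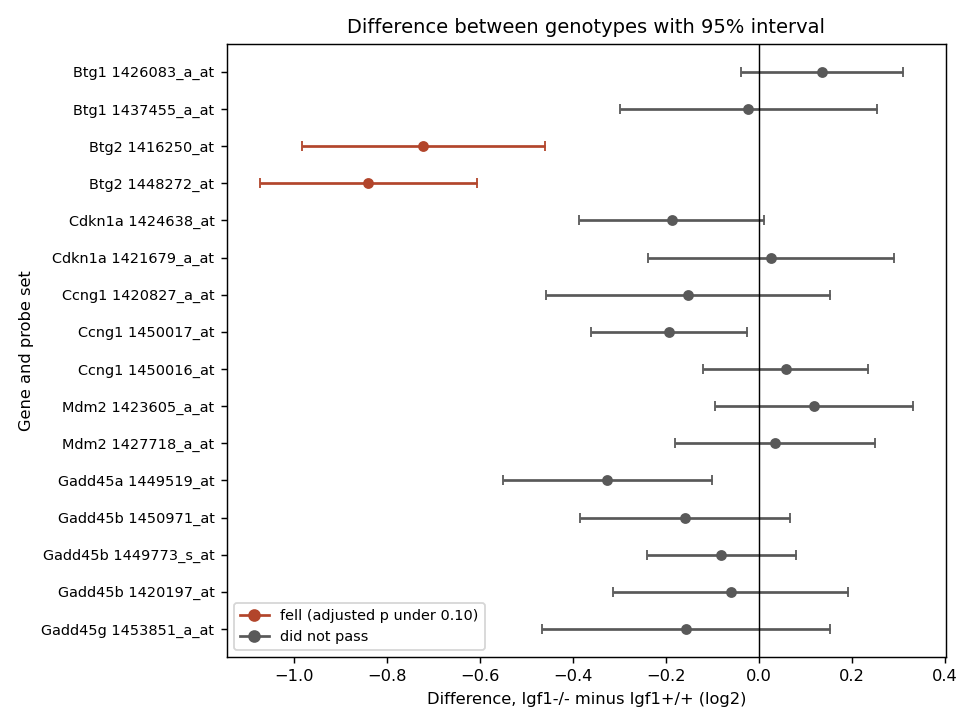
Log2 difference, Igf1-/- minus Igf1+/+, of each member probe set with its 95% interval from limma (n = 3 per genotype). Both Btg2 intervals lie wholly below -0.46, and the intervals of the 14 other probe sets lie between -0.55 and 0.33.

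Since Btg2 is counted among p53 targets, the promoters were also searched for the p53 half-site, the element of which p53 binds a pair. It was found in 5 of 10 members (Cdkn1a, Ccng1, Mdm2, Trp53 and Gadd45a) and in 8.36% of all promoters. As the members were picked for their known link with p53, this share is a description only. The stretches of 60 bases round the matches of the measured genes are given on GRCm38.p6, with the half-sites in capitals: Cdkn1a at chr17:29090892-29090951 (plus strand), with 2 half-sites in the upstream of its 2 promoters, Ccng1 at chr11:40755437-40755496 (minus), Mdm2 at chr10:117710910-117710969 (minus) and Gadd45a at chr6:67037413-67037472 (minus).
Cdkn1a: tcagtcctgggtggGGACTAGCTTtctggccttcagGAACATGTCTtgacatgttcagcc
Ccng1: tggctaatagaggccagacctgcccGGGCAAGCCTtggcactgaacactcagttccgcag
Mdm2: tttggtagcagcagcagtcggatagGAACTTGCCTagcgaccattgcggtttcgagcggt
Gadd45a: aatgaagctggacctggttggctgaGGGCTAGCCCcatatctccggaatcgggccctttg
None of the 4 genes with these matches passed the test, and Btg2, which passed, has no exact match to the half-site pattern in its window. Sites that depart from this pattern, and sites outside the promoter windows, were not searched. A gene without a match here may therefore still have a p53 site, inside its window or elsewhere. Whether p53 has a part in the fall of Btg2 was not tested.

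The 3 GADD45 genes were lower in Igf1-/- lungs at all 5 probe sets, 3 of them of Gadd45b, and none passed. Of all mouse probe sets, 41.8% were lower. Gadd45a, which p53 activates through an intronic site, came nearest: 1449519_at gave 6.00, 5.80 and 5.97 in Igf1-/- lungs and 6.41, 6.25 and 6.10 in Igf1+/+ lungs. The groups did not overlap, and 7.26% of all mouse probe sets were lower without overlap. The difference was -0.33, or 1.25-fold lower (SE 0.10, 95% interval -0.55 to -0.10, adjusted p 0.243 in limma). This probe set is dimmer than the median of all mouse probe sets, and it passed only without Igf1+/+ replicate 3 (adjusted p 0.0988), when 710 probe sets passed instead of 126 in all. Gadd45b, the member induced by TGF-beta and NF-kappaB, gave 9.02, 9.01 and 8.86 in Igf1-/- lungs and 9.16, 8.93 and 9.27 in Igf1+/+ lungs at its brightest probe set, 1450971_at (difference -0.16, adjusted p 0.542). Its other probe sets differed by -0.08 (1449773_s_at, without overlap, adjusted p 0.667) and -0.06 (1420197_at, adjusted p 0.853). The second of these, 1420197_at, is dim, and its difference was 0.048 without Igf1-/- replicate 3. Gadd45g, the member induced by several cytokines, gave 9.59, 9.69 and 9.45 in Igf1-/- lungs and 9.58, 9.55 and 10.06 in Igf1+/+ lungs. Its difference of -0.16 (adjusted p 0.665 in limma) rested on Igf1+/+ replicate 3, without which it was 0.0069. Taken within arrays, Gadd45b minus Gadd45a and Gadd45g minus Gadd45a differed between genotypes by 0.17 each, with overlapping groups (exact two-sided permutation p 0.4 and 0.6). Cdkn1a minus Mdm2 differed by -0.31, also with overlap (p 0.2 in the same test). As this test cannot go below 0.1 with 3 against 3 arrays, these values do not show that the genes changed alike.

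Genes that act around these members were counted from lists, at the brightest probe set of each gene. Listed genes without a probe set of their own were left out. At 1 probe set per gene, 0.452% of 12393 genes fell and 0.145% rose, 12.7% had an unadjusted p under 0.05, and the median difference was 0.03. Of 12 p53 targets that promote cell death, 4 were higher and 8 lower, with a median of -0.02. None passed, and 2 of 12 had an unadjusted p under 0.05, a share near that of all genes. The brightest of them were Siva1, a pro-apoptotic partner of CD27 (0.10), and Ei24, an endoplasmic reticulum protein (-0.02). Of 16 p53 targets of repair, metabolism and arrest, 8 were higher and 8 lower with a median of -0.01, none passed, and 2 of 16 had an unadjusted p under 0.05, again near the share of all genes. The brightest were the kinase gene Plk2 (-0.24, adjusted p 0.263 in limma) and the antioxidant gene Sesn1 (0.09).

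Among 14 measured regulators of p53, 9 were higher and 5 lower, and 1 rose. This was Trp73, which encodes the p53 relative p73, with 6.43, 6.41 and 6.30 in Igf1-/- lungs and 5.80, 6.01 and 5.88 in Igf1+/+ lungs (difference 0.48, SE 0.08, adjusted p 0.0695 in limma). The groups did not overlap, but the probe set is dim, and it did not pass with the replicate number as a block (adjusted p 0.116) or without any one array other than Igf1+/+ replicate 3 (0.112 to 0.224). The ubiquitin ligase gene Cop1 and the deubiquitinase gene Usp7, which act on p53 and Mdm2, gave -0.09 and 0.02. Of 16 partners of the BTG and TOB proteins and deadenylase subunits, 11 were higher and 5 lower with a median of 0.03, none passed, and none had an unadjusted p under 0.05. The poly(A) binding protein gene Pabpc1 gave -0.13 and the catalytic subunit gene Cnot6 0.10. Of 16 listed partners of the GADD45 proteins and growth arrest genes, 14 were measured, of which 9 were higher and 5 lower and none passed. Those without a value were Ccnb1 and Map2k7, and the paper reports Map2k7 as up-regulated in Igf1-/- lungs on these same arrays. The PCNA gene gave 0.08 and the p38 kinase gene Mapk14 gave -0.07. Ppp1r15a, also called Gadd34, lay just outside the threshold and is named after its values were seen (7.63 on average in Igf1-/- lungs and 8.36 in Igf1+/+ lungs, difference -0.72, adjusted p 0.102 in limma). It passed without Igf1+/+ replicate 3 (0.0255), with array weights (0.0301), with a variance trend and robust estimates (0.0685) and with dim probe sets left out (0.0859). With quantile normalization (0.104), median centring (0.105) or the replicate number as a block (0.114) it did not pass, nor without any other single array (0.133 to 0.262).

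Among 18 CDK inhibitors and G1 partners, 10 were higher and 8 lower, and 1 fell. Cdkn2b, the gene of the CDK4 and CDK6 inhibitor p15, gave 8.42, 8.48 and 8.01 in Igf1-/- lungs and 9.13, 9.06 and 9.05 in Igf1+/+ lungs. The groups did not overlap, and the difference was -0.77 (SE 0.12, adjusted p 0.0534 in limma), of a size like that of Btg2. It did not pass without Igf1-/- replicate 1 (0.122) or without Igf1+/+ replicate 1 (0.180) or 2 (0.133). The imprinted inhibitor gene Cdkn1c and the cyclin gene Ccni, the brightest of the list, gave 0.16 and -0.09. In this list 7 of 18 genes had an unadjusted p under 0.05 in limma, against 12.7% of all genes. Named after their values were seen, Ccnd2 (0.42), Cdk4 (0.32), Ccnd3 (0.22) and Ccne1 (0.20) were higher. Cdkn2b, Rb1 (-0.34) and Cdkn2c (-0.26) were lower, and of these genes only Cdkn2b passed. Without Igf1+/+ replicate 3, when 710 probe sets passed instead of 126, 4 genes of the list passed.

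Btg2 is also counted among the immediate-early genes, whose mRNAs rise and decay within a short time of a stimulus. Of 20 other immediate-early genes, 16 were lower and 4 higher, 12 fell, and the median difference was -0.84, beside -0.72 and -0.84 for Btg2. Many of the 20, among them Fos, Jun, Egr1, Nr4a1, Dusp1, Zfp36, Klf2 and Klf6, had been reported by the paper as repressed on these same arrays. The list was chosen with those results known, so its counts and median are a description and carry no independent support. In 17 of 20 the groups did not overlap, against 18.8% of all genes in either direction. The largest decreases were those of Fos (-3.32), Nr4a1 (-2.62), Egr1 (-2.39) and Dusp1 (-1.61), all larger than that of Btg2. The count of 12 was 7 without Igf1-/- replicate 1, without Igf1-/- replicate 3 or without Igf1+/+ replicate 1. The mean level of the 20 genes was 8.03, 8.01 and 7.94 in Igf1-/- lungs and 8.95, 9.21 and 8.78 in Igf1+/+ lungs, highest on Igf1+/+ replicate 2, the array on which Btg2 was highest as well. For the low immediate-early mRNAs the paper considers both the breathing of wild type embryos before dissection and a dependence on IGF1 signalling. Neither was tested here. Neutrophil and red cell markers separated the genotypes too, as given above, and their part in the fall of Btg2 was not tested. Array signals of RNA ends did not separate them: the 3' minus 5' difference of Gapdh was 0.09, -0.01 and 0.13 in Igf1-/- lungs and 0.13, 0.10 and 0.07 in Igf1+/+ lungs.

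**Figure D3:**
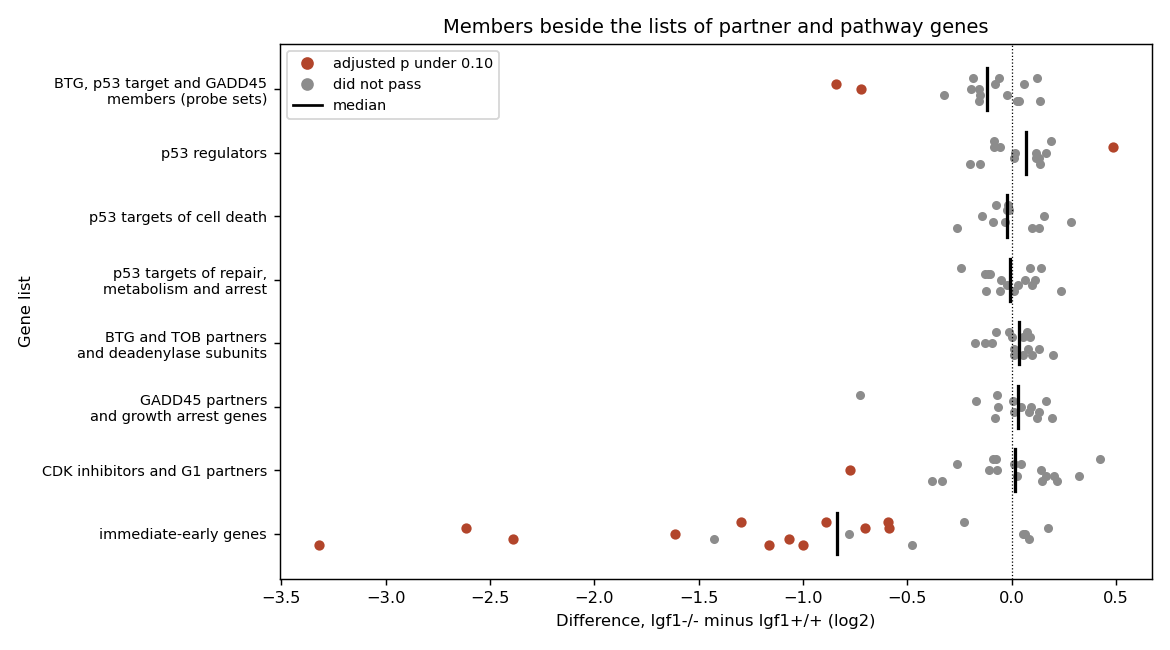
Log2 difference, Igf1-/- minus Igf1+/+, of each member probe set and of each listed gene at its brightest probe set, with called values in colour and the median as a bar. The p53, BTG, GADD45 and G1 lists centre near 0 with 2 called genes in all (Trp73 and Cdkn2b), and the immediate-early genes centre at -0.84 with 12.

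The genes whose pattern over the 6 arrays was most like that of Btg2 at 1416250_at were Fam91a1 (Pearson r 0.992), Gmfb (0.987), Pim3 (0.985), Ripk3 (0.985) and Ier2 (0.982). The 6 arrays fall into 2 genotypes, so these values mostly reflect a shared difference between them and carry no test. The other Btg2 probe set correlated with it at 0.956. Among these neighbours Ier2, an immediate-early gene, fell as Btg2 did: it gave 9.24, 9.31 and 9.09 in Igf1-/- lungs and 9.75, 9.98 and 9.69 in Igf1+/+ lungs (difference -0.59, adjusted p 0.0665 in limma). Fam91a1, Gmfb, Pim3, a kinase gene, and Ripk3, a kinase gene of necroptosis, differed by -0.20 to -0.36 and did not pass.

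**Figure D4:**
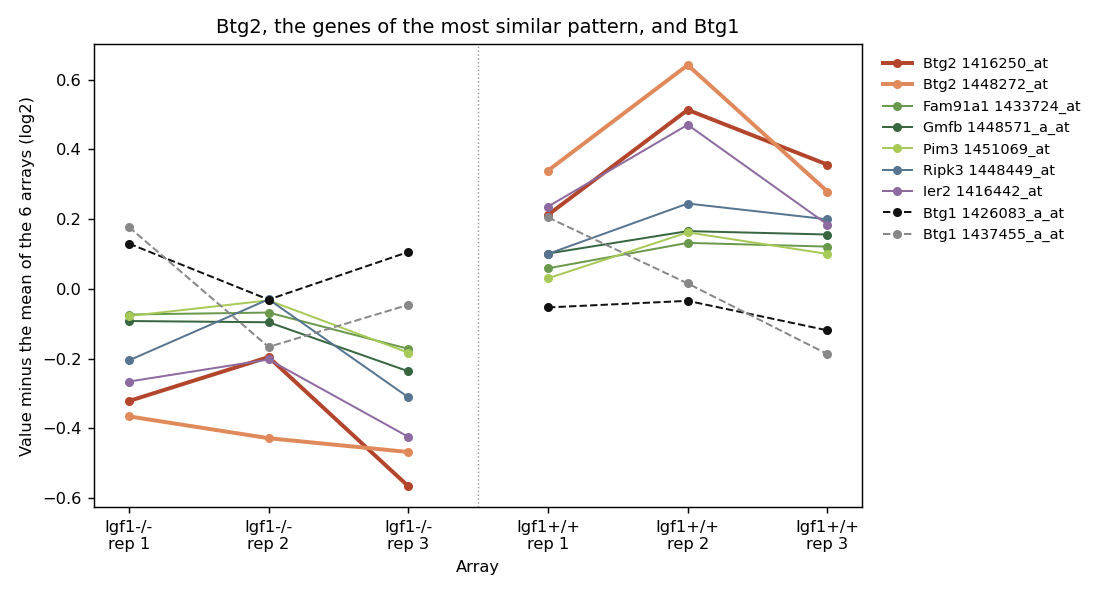
Value minus the mean of the 6 arrays (log2) for both Btg2 probe sets, the 5 genes most similar to 1416250_at and both Btg1 probe sets (dashed), with Igf1-/- arrays left and Igf1+/+ arrays right and lines joining arrays of 1 genotype only to guide the eye. Btg2 and its neighbours lie below 0 in all Igf1-/- lungs and above 0 in all Igf1+/+ lungs, and Btg1 does not.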

How the data were processed

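RNA of E18.5 lungs was hybridised by the authors to Affymetrix MOE430A 2.0 arrays, 3 per genotype. The authors deposited log2 values, computed by RMA from 12 arrays (6 lung, 6 cochlea). The sources used here do not give its version. RMA quantile normalization can hide a shift common to all genes. The labels give the genotypes and no batch. Of 22690 rows, 64 control probe sets were left out. A symbol was taken from the platform annotation where it gave 1 (20380 probe sets); 691 gave several and 1555 none. In all, 20351 matched the RefSeq table (GRCm38.p6).

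For each probe set, limma 3.58.1 (R 4.3.3) was fitted with genotype as the only term, and p values were adjusted by Benjamini-Hochberg over 22626 probe sets. Rose and fell mean an adjusted p under 0.10. The SAM statistic of the methods was not run. The code was tested on simulated data. Precision is limited by the number of arrays. The members and lists were chosen with earlier results of these data known. Named genes were all members, up to 4 called genes of each list with the largest change (with fewer than 2 called, also the 2 brightest), and the 5 genes most correlated with Btg2. Alternatives were a block for the replicate number, median centring, quantile normalization within the lung arrays, leaving out dim probe sets, a variance trend with robust estimates, array weights, keeping the control probe sets, taking the median over a gene's probe sets, thresholds of 0.20 and 0.05, and leaving out each array. Promoter sequences came from RefSeq on GRCm38.p6 (10 of 10 members matched).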

Additional observations from a re-analysis of the deposited data

How the results depend on the processing

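The replicate number of the labels did not pair the arrays, since same-numbered arrays correlated at -0.04, -0.23 and -0.14 after removal of the group means, and with it as a replicate block 2 member probe sets passed as before, while the count of p53 regulators went to 0. Both Btg2 probe sets fell under all 7 other fits (adjusted p 0.0221 to 0.0635 and 0.00587 to 0.0349). With the threshold at 0.05, the counts were 1 member probe set, 0 p53 regulators and 0 G1 genes, and at 0.20, 1 GADD45 partner and 2 G1 genes. Array weights gave 1 GADD45 partner and 2 G1 genes, dim probe sets left out gave 0 p53 regulators and 1 GADD45 partner, the variance trend gave 1 GADD45 partner, and the median probe set gave 0 p53 regulators and 1 GADD45 partner. The difference of Cdkn1a at 1421679_a_at turned to -0.0046 with array weights, that of Gadd45b against Gadd45g to 0.0011 with quantile normalization and 0.076 with the median probe set, and that of Cdkn1a against Ccng1 to 0.11 with the median probe set.

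Leaving out 1 array at a time left 1 to 3 member probe sets called, 0 to 1 p53 regulators, 0 to 1 GADD45 partners, 0 to 4 G1 genes and 7 to 15 immediate-early genes. The direction changed within these ranges for Btg1 at 1437455_a_at (-0.12 to 0.074), Cdkn1a at 1421679_a_at (-0.10 to 0.15), Gadd45b at 1420197_at (-0.15 to 0.048), Mdm2 at 1427718_a_at (-0.032 to 0.12), Gadd45g (-0.24 to 0.0069), Cdkn1a against Ccng1 (-0.14 to 0.077) and Gadd45b against Gadd45g (-0.092 to 0.092). Btg2 stayed between -0.80 and -0.62 at 1416250_at and between -0.91 and -0.73 at 1448272_at, and Gadd45a between -0.40 and -0.25. Fewer arrays give fewer calls by construction; why leaving out Igf1+/+ replicate 3 gave more was not tested. Values of dim probe sets are limited by background signal.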
